A study of Arabidopsis thaliana with 28 samples.

Results

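The 9 genes described here set how much abscisic acid (ABA) a plant cell keeps: the 4 CYP707A hydroxylases that break the hormone down, the glucosyltransferase UGT71B6 that conjugates it, the β-glucosidases BGLU18 and BGLU33 that free it again, and the transporters ABCG25 and ABCG40 that carry it across the plasma membrane. They were taken by locus identifier from a table of 33557 entries, and 9 of 9 were found. The plants were wild-type Col-0 Arabidopsis thaliana seedlings, incubated either with ABA or with an ethanol mock and collected after 0.5, 1, 3, 6, 9, 12 and 24 h, each treatment and time having its own mock. The design holds 28 RNA-seq libraries, 2 for each of 14 groups, but the authors deposited 1 pooled value per gene and group, so no spread between libraries can be given. Every level below is such a pooled value in FPKM, fragments per kilobase of transcript and per unit of sequencing depth, a scale that corrects for gene length. Neither the dose of ABA nor seedling age is given in the sources used here. Whole seedlings were sampled, and in such bulk tissue fewer cells of a type and less RNA per cell cannot be told apart.

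ABA is made from carotenoids and accumulates in drought and salt stress, where it closes stomata and restrains growth. Its level falls by 2 routes: the CYP707A cytochrome P450 enzymes hydroxylate it, which leads on to phaseic acid, and glucosyltransferases attach glucose to give the ABA glucose ester, a storage form kept largely in the vacuole. The β-glucosidases reverse the second route, BGLU18 in endoplasmic reticulum compartments and BGLU33 in the vacuole. ABCG25 exports ABA from cells and is known from vascular tissue, whereas ABCG40 imports it and is known from guard cells.

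The 4 CYP707A genes are separate loci with related coding sequences. CYP707A1 lies on chromosome 4 (AT4G19230, chr4:10521259-10523961, plus strand), CYP707A2 on chromosome 2 (AT2G29090, chr2:12494826-12499723, minus strand), CYP707A3 on chromosome 5 (AT5G45340, chr5:18368532-18371021, minus strand) and CYP707A4 on chromosome 3 (AT3G19270, chr3:6673689-6676521, minus strand), all on RefSeq's TAIR10.1 build. CYP707A1 and CYP707A3 were the closest pair, with 82.5% of aligned coding bases identical, against 63.4% to 66.0% for the other 5 pairs. In each of the 9 genes, 0 of the 50-base windows of the longest annotated transcript occurred in the same direction in a transcript of another gene. Near-identical copies thus do not share their sequence at that length. Reverse complements were not searched, so this does not cover UGT71B6's overlap with AT3G21781, a gene on the opposite strand. The heme-binding loop, part of the active site that all 4 enzymes share, is given here as 30 coding bases from RefSeq to show where they differ, with the codon of the cysteine that holds the heme iron in capitals.
CYP707A1: tttggcaatggaacccactcgTGTcctgga
CYP707A2: ttcggaaatggagtgcactcaTGTccagga
CYP707A3: tttggtagtgggattcattctTGTccaggc
CYP707A4: tttggaagtggagttcatgctTGTcccggg

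CYP707A1 and CYP707A3 also share a stretch of promoter, shown because no other CYP707A pair shares one of this length. The best alignment of their promoters (250 bases before to 50 after the annotated start) held 71 identical of 87 columns, 81.6%, whereas the best alignments of the other CYP707A pairs held 10 to 14 columns. Capitals mark the G-box, a palindrome that contains the ABA-response element (ABRE) core on both strands. The CYP707A1 stretch runs from position -61 to 17 around the start (chr4:10521198-10521275, plus strand), and that of CYP707A3 from -162 to -76 (chr5:18371097-18371183, minus strand).
CYP707A1: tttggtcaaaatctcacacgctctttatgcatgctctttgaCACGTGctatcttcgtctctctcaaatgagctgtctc
CYP707A3: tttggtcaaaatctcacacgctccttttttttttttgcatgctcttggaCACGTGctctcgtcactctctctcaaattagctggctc

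Pooled values summed to between 903608 and 1173233 FPKM, and 18634 to 18930 genes per pool reached 1 FPKM. The step between low values implied 34800000 to 50600000 fragments per pool, an estimate that assumes a fragment of 250 bases. Of the 9 genes, all passed the filter of at least 1 FPKM in at least 2 pools, CYP707A4 only through ABA pools and ABCG40 only through mock pools. Differences across times were tested with limma on log2(FPKM + 1), where the error is the spread of the ABA effect between times and not between plants. At single times the authors' own calls are given, for which no test or threshold is stated in the labels.

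CYP707A1 had the largest averaged response of the 9 genes. Its mock pools lay between 7.75 and 10.1 FPKM, with a median of 8.81, at all 7 times. The ABA pools held 57.4 FPKM at 0.5 h, 121 at 1 h, 186 at 3 h, 152 at 6 h, 119 at 9 h, 108 at 12 h and 99.7 at 24 h. Every ABA pool stood above every mock pool, a separation that CYP707A1 and ABCG25 share with 6.09% of the 25269 entries above 0 in any pool (3.21% were separated the other way, with 0 of the 9 genes). The ratio to the matched mock grew from 6.13 at 0.5 h to 21.6 at 3 h and was 12.9 at 24 h. The averaged effect was 3.54 ± 0.18 on the log2(FPKM + 1) scale (standard error; limma, adjusted p = 4.95e-06).

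CYP707A2, the family member known for removing ABA from imbibed seeds, responded less and from a rising base. Mock levels were 7.11, 5.85, 9.34, 9.88, 11.9, 11.7 and 13.7 FPKM from 0.5 to 24 h. Under ABA the same times gave 10.9, 15.6, 37.3, 27.6, 28.8, 35.7 and 35.2 FPKM. ABA was above the matched mock at 7 of 7 times, although the ABA pool at 0.5 h lay inside the range of the mock pools. The averaged effect was 1.31 ± 0.14 (limma, adjusted p = 0.000191).

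CYP707A3, known for breaking down ABA in leaves and stems when water returns after drought, changed more over time in mock than in treated seedlings, by a ratio of highest to lowest of 15.4 against 3.79. Mock pools held 33.6 FPKM at 0.5 h and 35.1 at 1 h, then 3.87 at 3 h and 3.22, 2.58, 2.28 and 2.58 FPKM at 6, 9, 12 and 24 h. ABA pools held 34.6, 26.5, 20.1, 13.7, 9.34, 9.14 and 9.92 FPKM. The 2 treatments thus lay close at 0.5 h, and the ABA pools then declined more gradually than the mock pools. At 1 h the ABA level was lower, a difference called in the authors' deposited table with a log2 ratio of -0.40. From 3 h on ABA was higher, with deposited log2 ratios of 1.86 to 2.38 in the authors' deposited table, and all 5 were called. The averaged effect of 1.19 ± 0.30 (limma, adjusted p = 0.0115) rests on those 5 times, and the call was lost when time was not kept as a block (adjusted p = 0.132).

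CYP707A4 was nearly silent without ABA. Its mock pools ranged from 0.259 to 0.873 FPKM, which the implied depth translates to 14.3 to 59.2 fragments. ABA pools held 0.456 FPKM at 0.5 h, 1.88 at 1 h, 9.14 at 3 h, 6.02 at 6 h, 5.90 at 9 h, 12.0 at 12 h and 12.8 at 24 h. Treated and mock pools overlapped at 0.5 h and were separate from 1 h on. At 24 h the deposited log2 ratio was 3.87, against 0.82 at 0.5 h, where the authors' deposited table made no call. The averaged effect was 2.03 ± 0.32 (limma, adjusted p = 0.00132), and the pseudocount of 1 makes it smaller than the ratios: with a pseudocount of 0.1 it was 2.98. CYP707A4 passed the filter only through ABA pools, where it is high, so that p-value is not independent support for the rise.

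**Figure D1:**
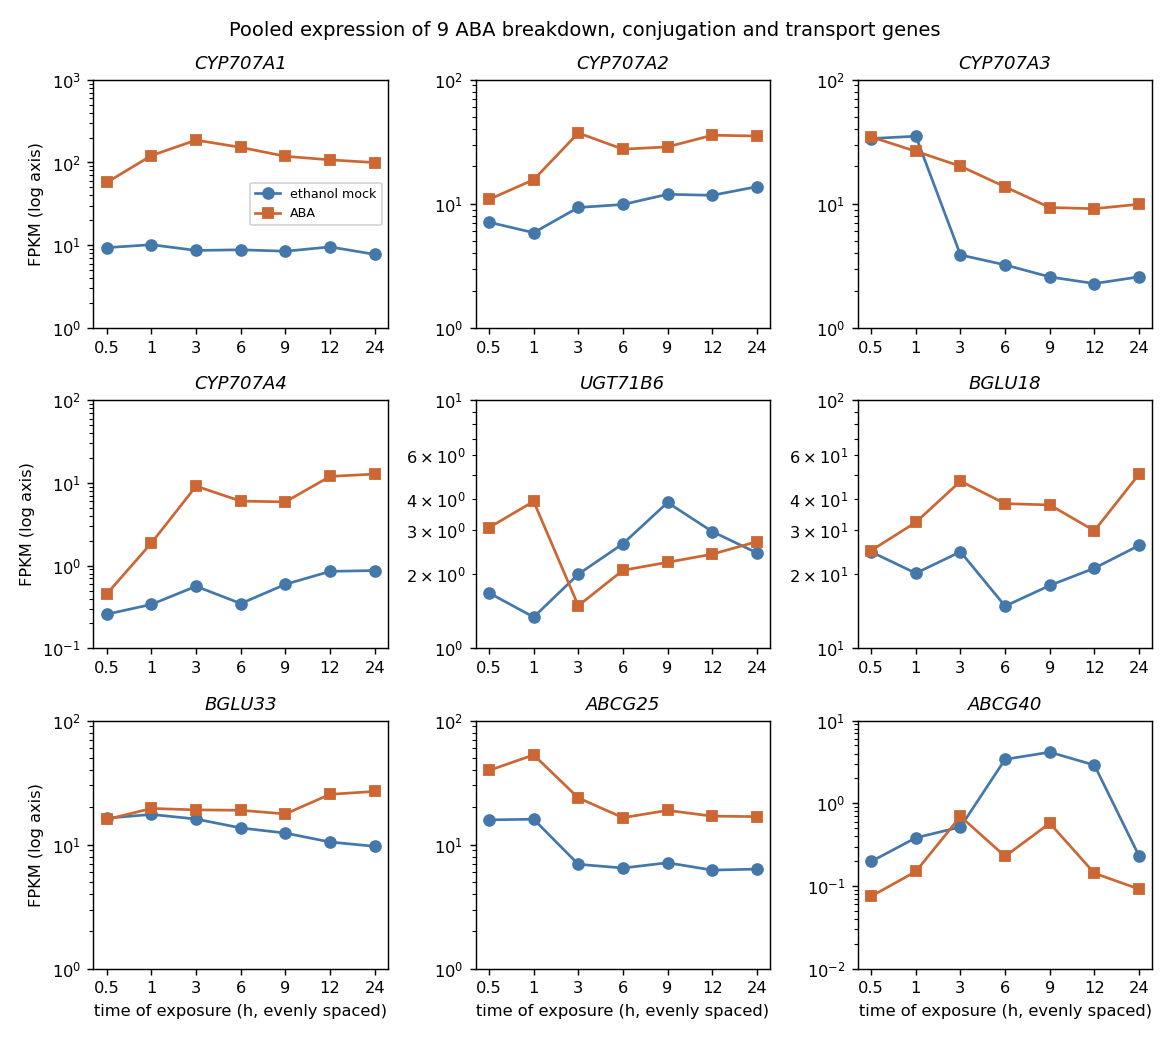
Pooled FPKM (log axis, which differs between panels) of the 9 genes against time of exposure in hours, with blue circles for the ethanol mock and orange squares for ABA; each point is 1 pool of 2 libraries and has no error bar. CYP707A1 and ABCG25 show no overlap between treatments, CYP707A3 drops in the mock between 1 and 3 h, and ABCG40 peaks at 4.15 FPKM in the mock at 9 h.

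Added together, the CYP707A genes changed both in amount and in make-up. Their summed level was 50.3 FPKM in the mock at 0.5 h and 51.4 at 1 h, and 22.3 to 24.9 FPKM at later times. Under ABA the sum was 103 FPKM at 0.5 h, 165 at 1 h, 253 at 3 h and between 158 and 200 from 6 h on. The ratio of the sums was 2.05 at 0.5 h, 11.3 at 3 h and 6.32 at 24 h. CYP707A3 made up 66.7% of the mock sum at 0.5 h and 68.2% at 1 h but 17.3% at 3 h and 10.3% at 24 h. CYP707A2 took over in the mock, from 14.1% at 0.5 h to 55.1% at 24 h. With ABA, CYP707A1 was the leading transcript at every time, at 55.5% at 0.5 h, 76.3% at 6 h and 63.3% at 24 h. CYP707A4 grew from 0.44% to 8.11% of the ABA sum between 0.5 and 24 h. These shares compare levels per length, and they carry no error because each is a ratio within 1 pool.

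**Figure D2:**
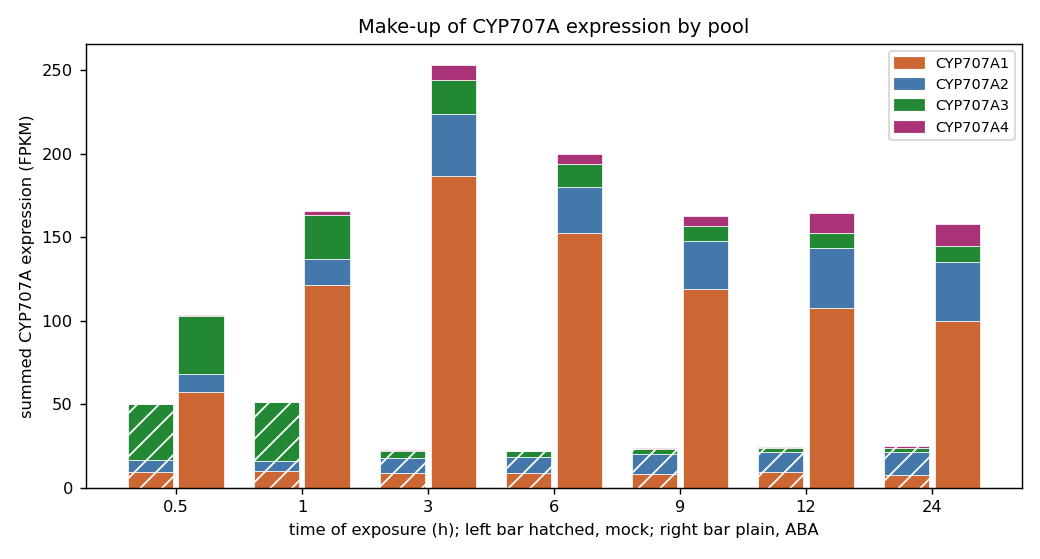
Stacked bars of the summed FPKM of CYP707A1 (orange), CYP707A2 (blue), CYP707A3 (green) and CYP707A4 (purple) at each time of exposure in hours, with hatched bars for the mock pool and plain bars for the ABA pool. The green part fills most of the first 2 mock bars, and the orange part is the largest in all ABA bars, which reach 253 FPKM at 3 h.

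UGT71B6, which glucosylates ABA to its glucose ester, showed an early rise and no lasting one. Mock levels were 1.67, 1.34, 1.99, 2.64, 3.87, 2.95 and 2.43 FPKM from 0.5 to 24 h, and ABA levels were 3.06, 3.91, 1.49, 2.06, 2.22, 2.40 and 2.69 FPKM. ABA was above the mock at 0.5, 1 and 24 h and below it at the other 4 times, with overlapping ranges. The authors' deposited table called it higher at 0.5 h (log2 ratio 0.87) and 1 h (1.55) and lower at 9 h (-0.80). The averaged effect was 0.06 ± 0.19 with a 95% interval from -0.36 to 0.49 (limma, adjusted p = 0.799), and its sign turned to -0.03 without 0.5 h and -0.10 without 1 h. The gene (AT3G21780, chr3:7674904-7676519, minus strand) is covered end to end by AT3G21781, a long noncoding RNA annotated on the opposite strand. Whether counting used the strand is not stated in the labels, so it is not known how reads from the shared bases were divided between the 2 genes. AT3G21781 was listed at 1.88, 0.421, 1.63, 2.09, 1.30, 0 and 0.780 FPKM in the mock from 0.5 to 24 h and at 2.12, 2.53, 0.0645, 0, 0, 0.796 and 0 under ABA. Like UGT71B6 it was thus higher under ABA at 0.5 and 1 h and lower at 3, 6 and 9 h. Unlike UGT71B6 it was higher under ABA at 12 h and lower at 24 h, and the authors' deposited table called it at no time.

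The enzymes that release ABA from its ester both rose, by less than the CYP707A genes in the averaged effect, a difference that was not tested. BGLU18 (AT1G52400, chr1:19514989-19518411, plus strand) held 24.5, 20.1, 24.5, 14.8, 17.9, 21.0 and 26.0 FPKM in the mock from 0.5 to 24 h. With ABA it held 24.8, 32.2, 47.2, 38.3, 37.8, 29.8 and 50.3 FPKM, above the matched mock at 7 of 7 times by a ratio that was largest at 6 h. The averaged effect was 0.76 ± 0.14 (limma, adjusted p = 0.00295).
BGLU33 (AT2G32860, chr2:13940187-13943883, plus strand) fell in the mock from 16.4 FPKM at 0.5 h and 17.5 at 1 h through 16.1, 13.6, 12.4 and 10.5 to 9.70 at 24 h. ABA pools held 16.0, 19.6, 19.1, 18.9, 17.7, 25.5 and 26.9 FPKM. The treatments were level at 0.5 h and farthest apart at 24 h, where the authors' deposited table gave a log2 ratio of 1.47. It called BGLU33 at 6, 9, 12 and 24 h, whereas BGLU18 was called in the authors' deposited table from 1 h on. For BGLU33 the averaged effect was 0.55 ± 0.17 (limma, adjusted p = 0.029), a call that was lost on leaving out 6, 9, 12 or 24 h (adjusted p between 0.0576 and 0.0727).

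The transporters moved in opposite directions. ABCG25, the exporter (AT1G71960, chr1:27082394-27088248, minus strand), held 15.8 and 16.0 FPKM in the mock at 0.5 and 1 h and 6.24 to 7.15 FPKM at the 5 later times. Under ABA it held 39.6 FPKM at 0.5 h, 52.9 at 1 h, 23.8 at 3 h, 16.5 at 6 h, 18.9 at 9 h, 17.0 at 12 h and 16.8 at 24 h. Both treatments therefore dropped after 1 h while their ratio stayed alike, and the lowest ABA pool was still above the highest mock pool. Deposited log2 ratios in the authors' deposited table lay between 1.32 and 1.78, the narrowest range of the 9 genes. The averaged effect was 1.38 ± 0.08 (limma, adjusted p = 1.02e-05).
ABCG40, the importer (AT1G15520, chr1:5331858-5338326, minus strand), was lower under ABA at 6 of 7 times. Mock pools held 0.198, 0.383 and 0.517 FPKM at 0.5, 1 and 3 h, then 3.40, 4.15 and 2.90 FPKM at 6, 9 and 12 h, and 0.231 FPKM at 24 h. ABA pools stayed between 0.0753 and 0.694 FPKM, with no such peak. ABA values at 0.5, 1, 12 and 24 h lay below the lowest mock pool. Those at 3, 6 and 9 h lay inside the range of the mock pools. The authors' deposited table called ABCG40 lower at 6, 9 and 12 h, with log2 ratios of -3.89, -2.85 and -4.34. Its averaged effect was -0.82 ± 0.29 (limma, adjusted p = 0.0413), and -1.69 with a pseudocount of 0.1. That call was lost without 6, 9 or 12 h (adjusted p of 0.111, 0.11 and 0.105), without the filter on low values (0.0615) and without time as a block (0.0738), and the ABA values rest on an implied 12.6 to 146.9 fragments. ABCG40 passed the filter only through mock pools, where it is higher, so the call is not independent support for the fall.
In the mock, ABCG25 exceeded ABCG40 by a ratio of 80.0 at 0.5 h and 1.72 at 9 h. Under ABA the ratio of the levels was 527 at 0.5 h and 32.8 at 9 h, its lowest.

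Taking the authors' calls at each time, the count of the 9 genes called higher was 4 at 0.5 h, 6 at 1 and 3 h, and 7 at 6, 9, 12 and 24 h in the authors' deposited table. Shares of all genes are given over the 23481 to 23710 entries above 0 in either pool of the time in question. The share called higher in the same table was 8.83% at 0.5 h, 13.3% at 1 h, 21.2% at 3 h, 19.0% at 6 h, 15.1% at 9 h, 16.0% at 12 h and 16.5% at 24 h. Calls lower numbered 1 at 1 h (CYP707A3), 1 at 6 h (ABCG40), 2 at 9 h (UGT71B6 and ABCG40) and 1 at 12 h (ABCG40) in the authors' deposited table. The share of all genes called lower was 8.83% at 1 h, 18.5% at 6 h, 15.7% at 9 h and 15.5% at 12 h; at the times with 0 members called lower it was 9.70% at 0.5 h, 17.1% at 3 h and 16.1% at 24 h. CYP707A1, CYP707A2 and ABCG25 were called higher at all 7 times in the authors' deposited table, as were 2.83% of the 25269 entries above 0 in any pool.

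**Figure D3:**
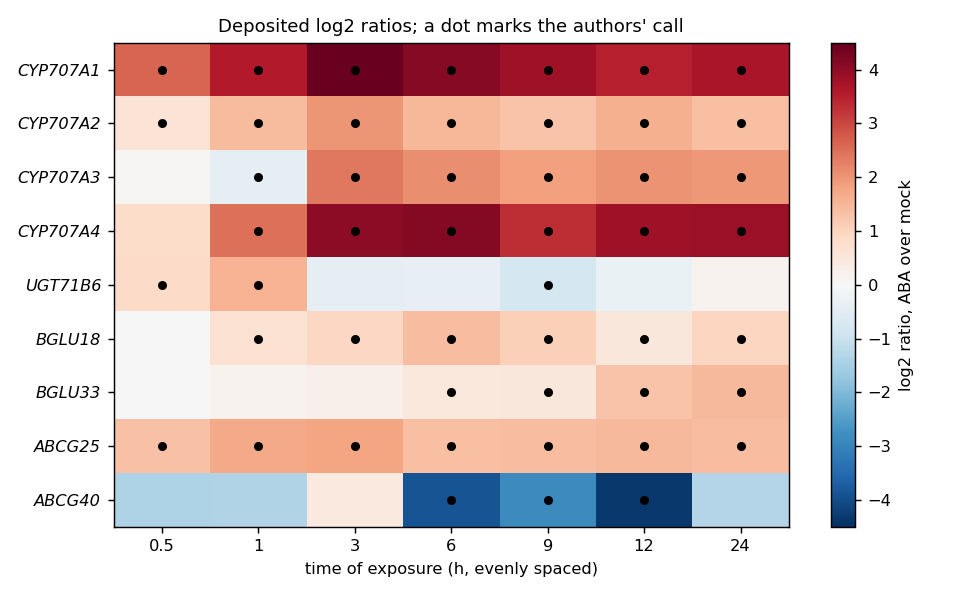
Heat map of the deposited log2 ratio of ABA over mock for the 9 genes (rows) at 7 times of exposure in hours (columns), red for higher and blue for lower under ABA, with a black dot where the authors' deposited table calls the difference significant. The rows of CYP707A1, CYP707A2 and ABCG25 are red and dotted throughout, and ABCG40 is blue and dotted at 6, 9 and 12 h.

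Averaged over the 7 times, 7 of the 9 genes rose, ABCG40 fell, and UGT71B6 did not pass the test. These counts include CYP707A4, which passed the filter only through ABA pools. They also include ABCG40, which passed only through mock pools and whose call was lost in several of the alternative fits. Of all 20034 genes tested, 23.9% were called higher and 23.2% lower in the same limma fit. The median averaged effect was 1.19 over the 9 genes and 4e-04 over all genes tested. As a check that does not borrow spread from other genes, an exact two-sided sign-flip test over the 7 times gave p = 0.0156, the smallest it allows, for CYP707A1, CYP707A2, CYP707A4, BGLU18 and ABCG25. Any gene with all 7 differences of the same sign gets this value, whatever their size. The share of all genes that reach it was not computed, so it does not set these genes apart. The exact p, unadjusted for the number of genes as are those above, was 0.0312 for BGLU33, 0.0469 for CYP707A3 and for ABCG40, and 0.797 for UGT71B6.

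Other genes named in ABA conjugation and transport moved in both directions. Of 20 such genes 13 passed the filter, 4 rose, 1 fell and 8 did not pass the test, with a median averaged effect of -0.01. Over all genes tested in that fit, 23.9% were called higher and 23.2% lower. ABCG22, a transporter known from stomatal regulation, had the largest effect at 2.09 ± 0.18 (limma, adjusted p = 8.22e-05), from 16.8 against 33.9 FPKM at 0.5 h to 9.41 against 47.8 FPKM at 24 h. UGT71C5, another ABA glucosyltransferase, had the lowest effect at -0.59 ± 0.13 (limma, adjusted p = 0.00664), with 24.1 FPKM in the mock and 9.86 under ABA at 3 h. The others that rose were AT2G40460 (0.97), the exporter DTX50 (0.93) and AT3G21790 (0.61), a neighbour of UGT71B6 in the same glucosyltransferase subfamily.
Among 10 ABA biosynthesis genes 6 passed the filter, 4 rose and 0 fell, with a median of 0.66, beside the same shares of 23.9% higher and 23.2% lower over all genes. NCED3, the dioxygenase whose step limits ABA synthesis in stress, had the largest effect at 3.34 ± 0.13 (limma, adjusted p = 1.3e-06). Its pools held 0.951 FPKM in the mock and 23.7 under ABA at 0.5 h, and 0.341 and 8.37 FPKM at 24 h. Every NCED3 mock pool was under 1 FPKM, so the gene passed the filter only through ABA pools. The lowest was ABA2, at -0.10 (limma, adjusted p = 0.459).

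**Figure D4:**
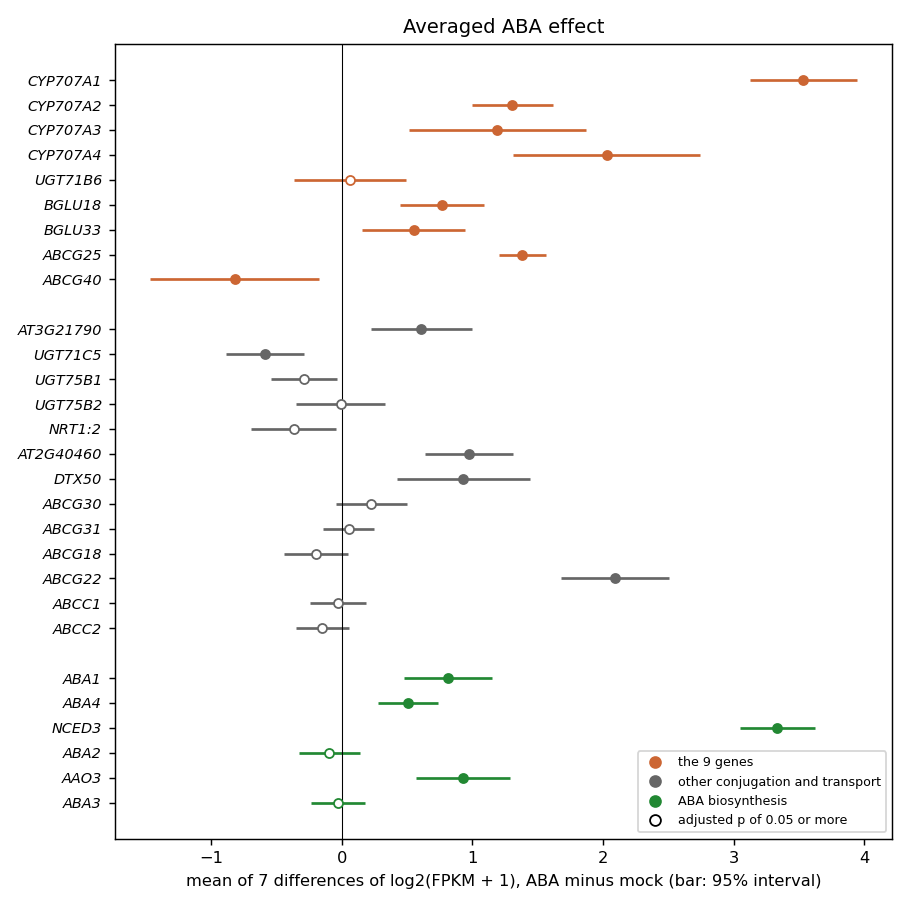
Averaged ABA effect, the mean of 7 differences of log2(FPKM + 1) between ABA and mock, for the 9 genes (orange), other conjugation and transport genes (grey) and ABA biosynthesis genes (green) that passed the filter; bars are 95% intervals from limma and open circles have an adjusted p of 0.05 or more. CYP707A1 at 3.54 and NCED3 at 3.34 stand farthest to the right, and ABCG40 at -0.82 farthest to the left. NCED3 and CYP707A4 passed the filter only through ABA pools, and ABCG40 only through mock pools.

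The response of several genes changed between the first hour and the middle of the series. The change in the mean ABA effect, middle (3 and 6 h) less early (0.5 and 1 h), was 2.13 ± 0.20 for CYP707A3 (limma, adjusted p = 0.00143), 1.88 ± 0.36 for CYP707A4 (adjusted p = 0.0139) and 1.15 ± 0.30 for CYP707A1 (adjusted p = 0.038). UGT71B6 went the other way, at -1.10 ± 0.27 (limma, adjusted p = 0.0331). So the ABA minus mock difference rose in 3 of the 9 genes and fell in 1, where 7.70% of all genes were called higher and 5.51% lower. The 3 include CYP707A4, which entered this test only because its ABA pools passed the filter. For CYP707A3 both treatments fell between 1 and 3 h, the mock from 35.1 to 3.87 FPKM and ABA from 26.5 to 20.1 FPKM. CYP707A2 (0.73, adjusted p = 0.119) and BGLU18 (0.78, adjusted p = 0.0992) did not pass the limma test. ABCG25 differed by -0.03 with a 95% interval of -0.49 to 0.43. The CYP707A3 call held on leaving out each time in turn. CYP707A1 lost its call in 6 of 7 such fits (adjusted p up to 0.187), CYP707A4 without 0.5, 3 or 6 h (up to 0.0822), and UGT71B6 without 0.5, 1, 3, 6 or 12 h (up to 0.145).
From 3 and 6 h to the late times of 9, 12 and 24 h, 0 of the 9 genes passed limma's test (adjusted p from 0.214 to 0.971). BGLU33, at 0.68 ± 0.26 (limma, adjusted p = 0.214), was the only 1 of the 9 with an unadjusted value under 0.05. Over all genes this test made 1 call higher and 1 lower, 0.00499% each.

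Mock seedlings themselves drifted over the day in 5 of the 9 genes. On a slope against log2 hours, CYP707A2 rose by 0.18 ± 0.03 (limma, adjusted p = 0.00811) and CYP707A4 by 0.10 ± 0.03 (adjusted p = 0.0401). CYP707A3 had a slope of -0.72 ± 0.11 (limma, adjusted p = 0.00684), ABCG25 of -0.25 ± 0.05 (adjusted p = 0.0105) and BGLU33 of -0.14 ± 0.03 (adjusted p = 0.0143). On leaving out single times the CYP707A4 call was lost in 5 of 7 fits (limma, adjusted p from 0.0743 to 0.134), that of BGLU33 without 1 h (0.0579) and that of ABCG25 without 0.5 h (0.0657). With a pseudocount of 0.1 the CYP707A4 slope was 0.25. All mock pools of CYP707A4 lay between 0.259 and 0.873 FPKM, so it entered this test only because its ABA pools passed the filter. Among all genes 14% rose and 14.9% fell. Comparing 3 and 6 h with 0.5 and 1 h within the mock, a fit added after the data were seen, gave -2.96 ± 0.12 for CYP707A3 (limma, adjusted p = 0.000141) and -1.14 ± 0.11 for ABCG25 (adjusted p = 0.00136). In that fit CYP707A2 was higher, at 0.51 ± 0.13 (limma, adjusted p = 0.031), and 11.4% of all genes were higher and 14.3% lower. CYP707A1 had a slope of -0.04 ± 0.03 with a 95% interval of -0.10 to 0.02. The ABCG40 peak at 6 to 12 h gave a slope of 0.22 (limma, adjusted p = 0.289), which became 0.47 (adjusted p = 0.00604) without 24 h.

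Ordered by the median over 7 times, mock levels ran from BGLU18 at 21.0 FPKM through BGLU33 at 13.6, CYP707A2 at 9.88, CYP707A1 at 8.81, ABCG25 at 6.95, CYP707A3 at 3.22 and UGT71B6 at 2.43 to CYP707A4 at 0.563 and ABCG40 at 0.517 FPKM. Neighbours in that order overlapped in their ranges over time, except UGT71B6 and CYP707A4. Under ABA the medians ran from CYP707A1 at 119 FPKM through BGLU18 at 37.8, CYP707A2 at 28.8, BGLU33 at 19.1, ABCG25 at 18.9, CYP707A3 at 13.7, CYP707A4 at 6.02 and UGT71B6 at 2.40 to ABCG40 at 0.150 FPKM. There CYP707A1 stood clear of BGLU18, and ABCG40 clear of UGT71B6, while the other neighbours overlapped.

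The ABRE core, ACGTG, is the element that ABF transcription factors bind in ABA-induced promoters. It was searched on both strands from 250 bases before to 50 after each annotated start, together with the G-box CACGTG, which holds the core on both strands and so overlaps it, and the dehydration-responsive core CCGAC. The ABRE core occurred in 6 of the 9 promoters and in 26.9% of 26685 promoters of the same length. The G-box occurred in 4 of 9 against 7.79%, at -20 in CYP707A1, -113 in CYP707A3, 41 in BGLU18 and -102 in ABCG25. CCGAC occurred in 0 of 9 against 15.0%. ABCG25 held further cores at -67 and -48, and CYP707A4 and ABCG40 held 1 core each, at -128 and -122. No core was found in this window of CYP707A2, UGT71B6 or BGLU33. Genes with a core thus include 5 that rose and ABCG40, which fell, and 2 of those without one, CYP707A2 and BGLU33, also rose. The windows outside the shared CYP707A1 and CYP707A3 stretch are shown to compare the spacing of the matches, in capitals, and are at chr3:6676633-6676661, chr1:19515017-19515038, chr1:27088280-27088362 and chr1:5338432-5338460 in the order printed (minus strand except BGLU18, RefSeq TAIR10.1).
CYP707A4: tcgtcatcttccCACGTttggacgaaata
BGLU18: cttataaagaatCACGTGctac
ABCG25: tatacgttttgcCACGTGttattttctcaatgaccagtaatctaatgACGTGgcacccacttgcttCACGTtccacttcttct
ABCG40: ttatttcttggtCACGTtccgtctctgat

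**Figure D5:**
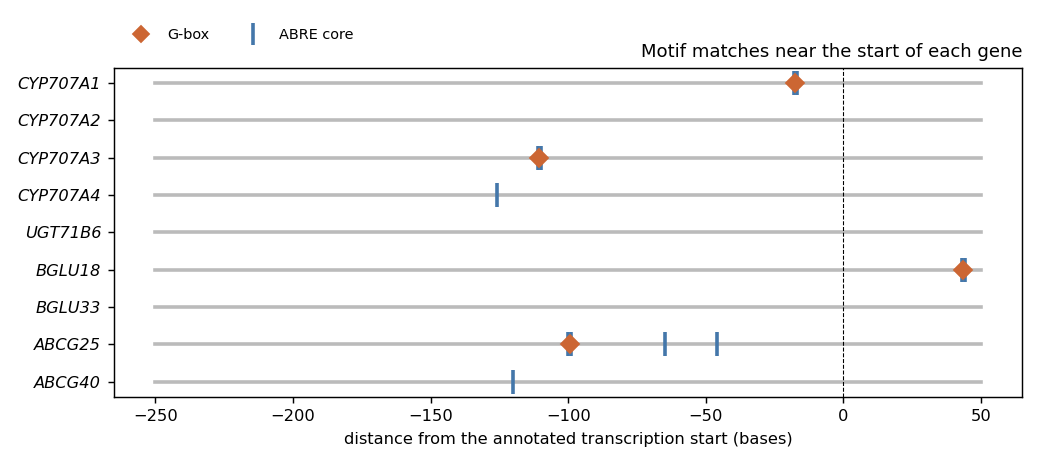
Positions of G-box (orange diamonds) and ABRE core (blue bars) matches from 250 bases before to 50 after the annotated transcription start (dashed line) of the 9 genes. CYP707A1 and BGLU18 carry their G-box nearest to the start, and ABCG25 carries the most matches.

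Genes whose 14 pooled values ran most like each of the 9 were ranked among 14525 genes by Pearson's r on log2(FPKM + 1). All points share their pools, so r is a description. CYP707A1 was nearest to the PP2C phosphatase genes HAI2 (0.998) and HAI3 (0.996) and to MSL4 (0.995). ABCG25 was nearest to AT3G56050 (0.991), AT5G37540 (0.987) and NAC080 (0.983). For CYP707A3 they were AT1G12450 (0.983), AT1G52750 (0.974) and UBC8 (0.966), for CYP707A2 ALDH12A1 (0.978), PGM3 (0.973) and HXK1 (0.972), and for CYP707A4 LTP2 (0.978), AT1G68570 (0.976) and PUT1 (0.975). BGLU33 ran closest to LAC11 (0.968), XCP2 (0.956) and IRX12 (0.955). The closest genes were more distant for ABCG40 (CUE1 0.927, RFC2 0.918, AT1G56145 0.905), BGLU18 (AGL20 0.925, HDA2 0.909, AT3G28220 0.905) and UGT71B6 (TRP1 0.835, RLK 0.746, AOC1 0.741).

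Markers of the organs and cells in a seedling were all above 0 in all 14 pools. For the counts below, the averaged limma fit called 23.9% of all genes tested higher and 23.2% lower. The summed level of 6 guard cell markers ranged from 195 to 415 FPKM in the mock and from 50.5 to 456 under ABA, and 3 of 6 fell in the averaged limma fit. A single gene, AT1G22690, carries that sum, at 161 to 383 FPKM in the mock and 25.6 to 430 under ABA. The other 5 together held 31.8 to 38.1 FPKM in the mock and 20.9 to 26.6 under ABA, and the genes that fell were AT1G22690, MYB60 and FMA. The 4 vascular markers summed to 102 to 136 FPKM in the mock and 117 to 184 under ABA, and 2 rose. The 9 root markers summed to 1618 to 2535 FPKM in the mock and 964 to 2309 under ABA, with 4 higher and 2 lower. The 3 leaf markers summed to 14271 to 36248 FPKM in the mock and 13086 to 33901 under ABA, and 0 of 3 passed the averaged test. Their part in the results for ABCG40, ABCG25 and the other genes was not tested.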

How the data were processed

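RNA from 28 libraries was sequenced. Per the submitters' processing notes, reads were checked with FastQC and aligned with STAR to TAIR10, with no versions given. The authors deposited 1 value per gene and group, made from 2 libraries together, so replicate numbers could not be used and tests were run over times. That the authors' values are FPKM was judged from their range, since no header says so. The deposited log2 ratios and calls, treated as other values, are the authors' own, and the ratios equalled log2 of ABA over mock FPKM with a largest gap of 0.00262. The quantifier, its strand setting and the authors' test are not stated in the labels.

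The 9 genes and all lists were chosen with earlier results of these data known. The genes named are these 9, the 3 most alike genes of each and the extremes of the conjugation and transport list and the biosynthesis list. Also named are the other conjugation and transport genes that rose, the guard cell markers that fell, and AT3G21781. The tests used limma 3.58.1 in R 4.3.3 with trended moderation, on log2(FPKM + 1) of the 20034 genes that reached 1 FPKM in 2 or more pools, with Benjamini-Hochberg adjustment at 0.05. The averaged effect kept time as a block (6 residual degrees of freedom), phases left 4 and mock slopes 5. Fits treat times as independent, which was not tested. They were also run on simulated data, whose noise was independent between pools, so those runs cannot check that assumption. Sequences came from RefSeq TAIR10.1 (Biopython 1.88), whose annotation matched 32813 entries. The alternatives were another pseudocount, no filter, a median scaling, a robust fit, no time block, each time left out, and removal of a transcript length trend, which was added after the data were seen.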

Additional observations from a re-analysis of the deposited data

Results flagged for a closer look

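In 4 of the 9 genes the ABA effect differed between the early times (0.5 and 1 h) and the middle times (3 and 6 h) by a limma test of the difference itself, 3 higher and 1 lower, where 7.70% of all genes were called higher and 5.51% lower. The difference, middle minus early, was 1.15 for CYP707A1, 2.13 for CYP707A3, 1.88 for CYP707A4 and -1.10 for UGT71B6 on the log2(FPKM + 1) scale. CYP707A4 is counted here although it passed the filter only through ABA pools. For CYP707A3 the mock level fell from 35.1 to 3.87 FPKM between 1 and 3 h while the ABA level went from 26.5 to 20.1 FPKM. The CYP707A3 call held with each time left out. Those of CYP707A1 (6 of 7 fits), CYP707A4 (3 of 7) and UGT71B6 (5 of 7) were lost in some of these fits, and without the filter on low values CYP707A1 (limma, adjusted p = 0.0852) and UGT71B6 (0.0675) were lost too. AT3G21781, which covers UGT71B6 on the other strand, was listed at 2.53 FPKM under ABA and 0.421 in the mock at 1 h and at 0.0645 and 1.63 FPKM at 3 h; its part in the UGT71B6 values was not tested.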

How the results depend on the processing

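No paired analysis was possible because the deposited columns are pools of 2 libraries and carry no replicate numbers, which concerns pairing by replicate only, since the averaged fit pairs ABA and mock pools by time. With each time left out in turn, members called numbered 6 to 7 higher and 0 to 1 lower for the averaged effect, 1 to 4 higher and 0 to 1 lower for middle minus early, and 1 to 3 higher and 2 to 3 lower for the mock slope. Over all genes these fits called 368 to 1811 higher and 281 to 1347 lower for middle minus early, 0 to 33 and 0 to 56 for late minus middle, and 975 to 4039 and 1184 to 4440 for the mock slope. Without the filter on low values, 0 members were lower in the averaged effect and in middle minus early, 720 genes against 1103 were lower in middle minus early, and late minus middle called 2 higher and 0 lower. With no time block 0 members were lower in the averaged effect. The robust fit gave 2 genes higher in late minus middle, and removing the transcript length trend gave 0 higher and 0 lower. Mock phases in place of the slope left 1 member higher. Asking for at least 2-fold left 3 of 5 lower calls in the authors' deposited table. With a pseudocount of 0.1, ABCG25 turned to 0.032 in middle minus early and CYP707A4 to -0.29 in late minus middle. Signs also turned on leaving out a time for UGT71B6 (averaged -0.10 to 0.17, late minus middle -0.15 to 0.20), ABCG25 (-0.24 to 0.18 in middle minus early, -0.35 to 0.068 in late minus middle), ABCG40 (-1.63 to 0.37 and -1.38 to 0.62), CYP707A4 (late minus middle -0.10 to 0.31) and BGLU18 (mock slope -0.074 to 0.032), all uncalled values. The cause was not tested. ABCG40 and mock CYP707A4 are limited most by depth, at levels under 1 FPKM in most pools.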
